A study of Mus musculus with 6 samples.

Results

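The genes of the unfolded protein response described here are 31 genes for chaperones, sensors, transcription factors and degradation machinery of the endoplasmic reticulum (ER). They were taken by symbol from a list chosen with earlier results of these data known. All 31 had a row among the 24421 genes of the count files. RNA came from the microdissected Purkinje neuron layer and molecular layer of the cerebellum of mice aged 1 year, 3 STIM1 knockout (KO) and 3 wild type (WT). The series text calls them biological replicates, and the labels name for the KO neither the deleted exons, the Cre driver nor the cells that lose the gene. STIM1 is the sensor of the ER calcium store. For these genes, the comparison asks whether transcripts of the ER stress response differ between libraries labelled STIM1 KO and WT.

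The unfolded protein response restores folding capacity when misfolded proteins build up in the ER. The sensors IRE1 (gene Ern1), PERK (Eif2ak3) and ATF6 (Atf6) span the ER membrane and are held inactive by the chaperone BiP (Hspa5). Once released, IRE1 splices Xbp1 mRNA, PERK slows translation and favours ATF4, which induces CHOP (Ddit3) and amino acid genes, and cleaved ATF6 moves to the nucleus and induces chaperones. Many lumenal chaperones bind calcium, and Purkinje neurons have an ER rich in calcium release channels.

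The 6 libraries held 645994 to 764839 counts in genes. In each library 98.8% of the reads with a unique position fell in no gene, and 1.16% to 1.23% fell in genes. A tested gene had a median of 24 to 31 counts per library. Neither the strand setting of the counting nor whether the kit keeps strand is given in the sources used here, so it is uncertain for each gene below whether its counts are its own mRNA. Genes with at least 50 bases of exon in common with a gene on the other strand held 74.4% of the counts of annotated genes. Stim1 (chromosome 7, 102267806 to 102437319) had 4, 3 and 2 counts in KO replicates 1 to 3 and 7, 21 and 3 in WT replicates 1 to 3, with an exact two-sided permutation p of 0.3. With no filter on low counts edgeR gave Stim1 a log2 fold change of -1.77 (unadjusted p 0.0016, adjusted p 0.904). At counts this low Stim1 is a weak check of the genotype. Y-linked genes had counts in KO replicate 3 and WT replicate 3 alone, 14 and 28. All 8 Purkinje cell markers were tested, and their summed level was 1897 to 2549 CPM in KO and 2505 to 3138 CPM in WT. CPM are counts scaled to the library's total in genes times its TMM normalisation factor. The sum of 7 markers of Bergmann glia and astrocytes was 438 to 627 CPM in KO and 678 to 784 CPM in WT, and that of 5 markers of molecular layer interneurons was 370 to 434 CPM in KO and 481 to 544 CPM in WT. The glial and interneuron sums did not overlap between the genotypes, while values of single genes did not overlap for 10.7% of all tested genes. No marker of the 3 lists passed the test. The sums themselves were not tested, nor was their part in the values below. In such tissue fewer cells of a type and less RNA per cell cannot be told apart. The sums overlapped between KO and WT for 6 granule cell markers (374 to 425 CPM in KO and 334 to 421 CPM in WT), 6 oligodendrocyte markers (91.2 to 125 CPM in KO and 104 to 121 CPM in WT), 6 microglia markers (1.59 to 21.5 CPM in KO and 11.3 to 49.2 CPM in WT) and 4 endothelial markers (5.98 to 22.8 CPM in KO and 8.46 to 15.1 CPM in WT).

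Stress elements were looked for in the promoters of the set. The ER stress element (ERSE), which is CCAAT and CCACG with 9 bases of any kind between them, is read by the factor NF-Y together with ATF6 or XBP1, and the ERSE-II, ATTGG and CCACG with 1 base of any kind between them, is a shorter relative. The C/EBP-ATF element, TGATGNAA, is bound by ATF4 with a partner of the C/EBP family. Each was searched on both strands of the RefSeq promoters of build GRCm38.p6, from 250 bases before to 50 bases after the start, which hold 27 of the 31 genes. Hyou1, Manf, Atf6 and Derl1 were not matched. An exact ERSE stood in 9 of the 27 promoters (33.3%), against 39 of all 32851 promoters of that length (0.119%). The ERSE-II stood in 2 of the 27 (7.41%) and in 0.0365% of all, and the C/EBP-ATF element in 5 of the 27 (18.5%) and in 3.97% of all. The XBP1 element TGACGTGG stood in 0 of the 27 and in 0.676% of all. No match overlapped another. These matches are descriptions of letters, and no binding was measured. Genes and elements were both chosen for their part in this response, so the shares are no independent evidence. They were not tested.

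All exact ERSE matches of the set follow, read in the direction of the motif with the fixed letters in capitals and the spacer in lower case. They are shown because these genes include most of those that were deep enough to test.
Hspa5: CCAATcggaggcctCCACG
Hsp90b1, distal: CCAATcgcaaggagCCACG
Hsp90b1, proximal: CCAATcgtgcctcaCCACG
Dnajc3: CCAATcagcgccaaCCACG
Calr: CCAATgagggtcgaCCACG
Canx: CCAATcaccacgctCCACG
Pdia6: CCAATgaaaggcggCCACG
Creld2: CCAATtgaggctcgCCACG
Syvn1: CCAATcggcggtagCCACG
Derl3: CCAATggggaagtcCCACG

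The elements lay from 212 to 26 bases before the start. Hsp90b1 carried 2 of them, while every other holder had 1. The holders were chaperones and folding enzymes (Hspa5, Hsp90b1, Dnajc3, Calr, Canx, Pdia6 and Creld2) and degradation genes (Syvn1 and Derl3). The C/EBP-ATF element was found in Asns, Chac1 and Trib3, which are 3 of the 4 genes set down as PERK and ATF4 targets, and in Atf3 and Herpud1. Herpud1 held both a C/EBP-ATF element and an ERSE-II, and Dnajb11 an ERSE-II 8 to 18 bases after the start.

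**Figure D1:**
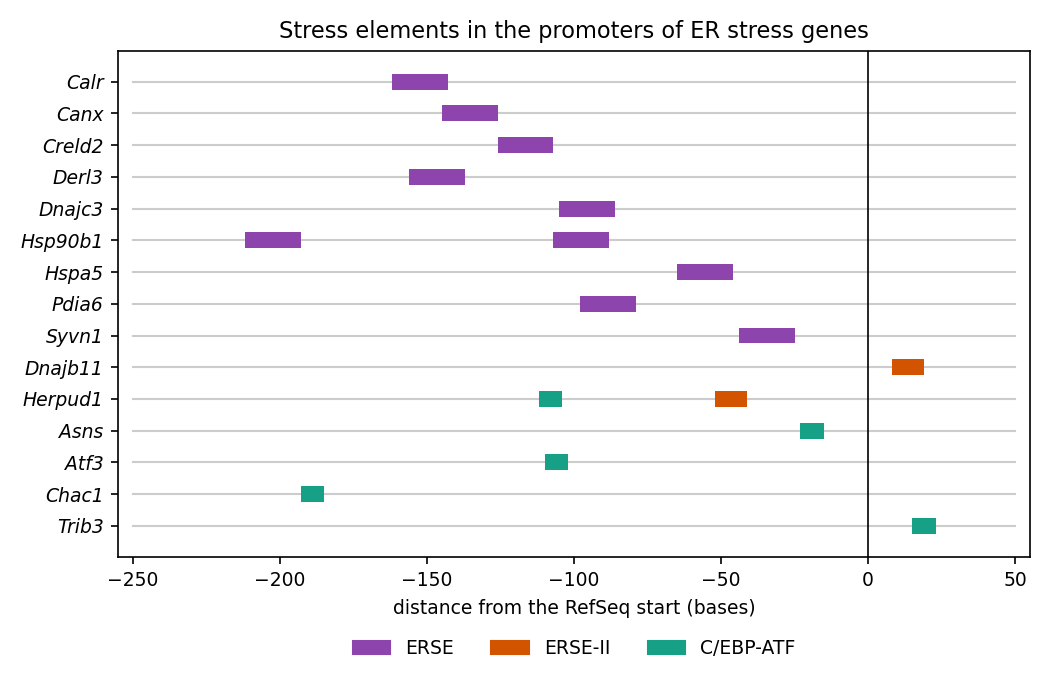
Position of exact matches to the ERSE, ERSE-II and C/EBP-ATF elements (coloured bars, drawn to scale) in the 15 promoters that hold any, by distance in bases from the RefSeq start at 0. The 10 ERSE matches lie before the start in 9 genes, and the C/EBP-ATF matches lie in Asns, Atf3, Chac1, Herpud1 and Trib3.

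Only exact matches were searched, so variants with other letters are neither counted nor marked. The 250 bases before the start are given for 4 genes as examples of each layout, 5′ to 3′ on the gene's strand, with the matched elements in capitals: 1 exact ERSE (Hspa5), 2 exact ERSE (Hsp90b1), an ERSE-II with a C/EBP-ATF element (Herpud1) and a C/EBP-ATF element alone (Asns).
Hspa5 (chr2:34771840-34772089, plus strand): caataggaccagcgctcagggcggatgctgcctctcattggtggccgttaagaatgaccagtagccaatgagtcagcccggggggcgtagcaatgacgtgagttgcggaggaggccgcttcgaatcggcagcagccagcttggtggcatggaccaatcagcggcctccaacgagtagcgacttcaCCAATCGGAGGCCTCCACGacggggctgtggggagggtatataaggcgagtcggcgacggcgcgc
Hsp90b1 (chr10:86705445-86705694, minus strand): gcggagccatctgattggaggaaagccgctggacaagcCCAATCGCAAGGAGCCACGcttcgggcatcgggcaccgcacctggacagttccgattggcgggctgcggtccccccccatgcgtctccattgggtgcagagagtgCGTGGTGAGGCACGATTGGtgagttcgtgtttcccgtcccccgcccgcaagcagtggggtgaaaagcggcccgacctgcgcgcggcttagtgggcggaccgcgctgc
Herpud1 (chr8:94386179-94386428, plus strand): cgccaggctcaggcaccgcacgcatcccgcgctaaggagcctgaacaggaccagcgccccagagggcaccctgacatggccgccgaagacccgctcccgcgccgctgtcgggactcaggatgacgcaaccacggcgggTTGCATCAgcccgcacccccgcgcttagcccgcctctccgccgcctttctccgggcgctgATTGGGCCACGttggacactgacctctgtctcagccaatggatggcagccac
Asns (chr6:7693210-7693459, minus strand): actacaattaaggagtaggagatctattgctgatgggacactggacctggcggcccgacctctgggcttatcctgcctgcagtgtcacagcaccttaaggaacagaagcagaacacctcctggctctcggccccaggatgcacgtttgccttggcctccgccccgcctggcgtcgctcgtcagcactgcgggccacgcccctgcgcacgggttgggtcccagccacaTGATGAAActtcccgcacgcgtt

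No difference between KO and WT was detected for any of the 31 genes. Of the 31, 10 passed the filter on low counts (32.3%, against 21.8% of all genes in the files). The 21 below it were compared by an exact permutation test, which gives no p under 0.1 here and so could not detect a difference. By edgeR's quasi-likelihood test 0 of the 10 that passed had an adjusted p under 0.05, where 0% of the 5320 tested genes did. At an unadjusted p under 0.05 there were 0 of the 10, against 4.62% of all tested genes (246). DESeq2 and limma-voom also called 0 of the 10, and 0 at an unadjusted p under 0.05. CPM values of KO and WT libraries overlapped for each of the 10, while they did not overlap for 10.7% of all tested genes. Log2 fold changes of KO over WT were above 0 for 5 and below 0 for 5, with a median of 0.020, beside a median of 0.0019 over all tested genes. The 31 genes together took 1186, 1378 and 1290 CPM in KO replicates 1 to 3 and 1416, 1174 and 1206 CPM in WT replicates 1 to 3, so the WT range spanned the KO range.

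The lumenal chaperones and their cochaperones held 32.1% of the counts of the set. Hspa5, which encodes the HSP70 chaperone BiP (chromosome 2, 34771970 to 34777547), had 49, 64 and 50 counts in KO and 72, 55 and 60 in WT. That is 79.1 ± 16.9 CPM in KO and 91.7 ± 13.6 CPM in WT (SD, n = 3 each), with WT replicate 1 the highest and KO replicate 1 the lowest library. Its log2 fold change was -0.22 (SE 0.22, edgeR adjusted p 0.987), with a 95% interval of the fold from 0.625 to 1.17. Hsp90b1, the ER form of HSP90 known as GRP94 (chromosome 10, 86690209 to 86705509), had 182, 190 and 154 counts in KO and 200, 127 and 189 in WT. Its means were 253 ± 27.8 CPM in KO and 252 ± 54.5 CPM in WT (SD, n = 3 each), and its log2 fold change was -0.0016 (SE 0.17). WT replicate 2 stood below the other WT libraries, and the variance within the genotypes was 4.996 times that of counting alone, the highest of the 10 tested genes, which otherwise had 0.369 to 2.24 times. Dnajc3, an inhibitor of PERK that also acts as a cochaperone in the lumen, had 31, 22 and 18 counts in KO and 20, 23 and 24 in WT, a log2 fold change of 0.041 (SE 0.27).

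The remaining lumenal genes lay below the filter. Hyou1, a large HSP70 relative that serves BiP, had 11, 4 and 5 counts in KO and 11, 2 and 3 in WT. Dnajb11, a BiP cochaperone, had 12, 8 and 5 counts in KO and 11, 2 and 6 in WT, and Manf, a secreted and ER-resident survival factor, 4, 3 and 11 counts in KO and 9, 5 and 10 in WT. Sdf2l1, a partner of the BiP cochaperones, had at most 2 counts in any library. Dnajb9, a cochaperone that keeps IRE1 inactive, had 6, 1 and 1 counts in KO and 11, 4 and 7 in WT. Only KO replicate 1 reached the WT range, and the exact two-sided permutation test on CPM gave p = 0.2, where 3 libraries against 3 can give no less than 0.1.

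Among the lectin chaperones, which hold glycoproteins in the folding cycle, Calr had 83, 86 and 80 counts in KO and 84, 78 and 63 in WT. Calreticulin is also the main calcium buffer of the ER lumen. Calr averaged 120 ± 13.2 CPM in KO and 111 ± 19.3 CPM in WT (SD, n = 3 each), and its log2 fold change was 0.11 (SE 0.19) with a 95% interval of the fold from 0.819 to 1.43. Canx, the membrane-bound calnexin, had 144, 126 and 112 counts in KO and 128, 122 and 105 in WT. It averaged 183 ± 5.18 CPM in KO and 174 ± 23.1 CPM in WT (SD, n = 3 each), and its log2 fold change was 0.066 (SE 0.16).

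The disulfide isomerases form and reshuffle the disulfide bonds of secretory proteins. Pdia3, which works with calreticulin and calnexin, had 28, 31 and 25 counts in KO and 28, 26 and 21 in WT, a log2 fold change of 0.13 (SE 0.26). Pdia6 had 16, 10 and 7 counts in KO and 11, 11 and 10 in WT, a log2 fold change of -0.0016 (SE 0.40), and its interval of the fold, 0.556 to 1.79, was the widest upwards. Pdia4 had 3, 3 and 6 counts in KO and 6, 0 and 4 in WT. Creld2, an ER stress-inducible protein with EGF-like domains, had 4, 0 and 1 counts in KO and 0, 1 and 0 in WT. For these last genes a difference was not detectable at this depth.

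**Figure D2:**
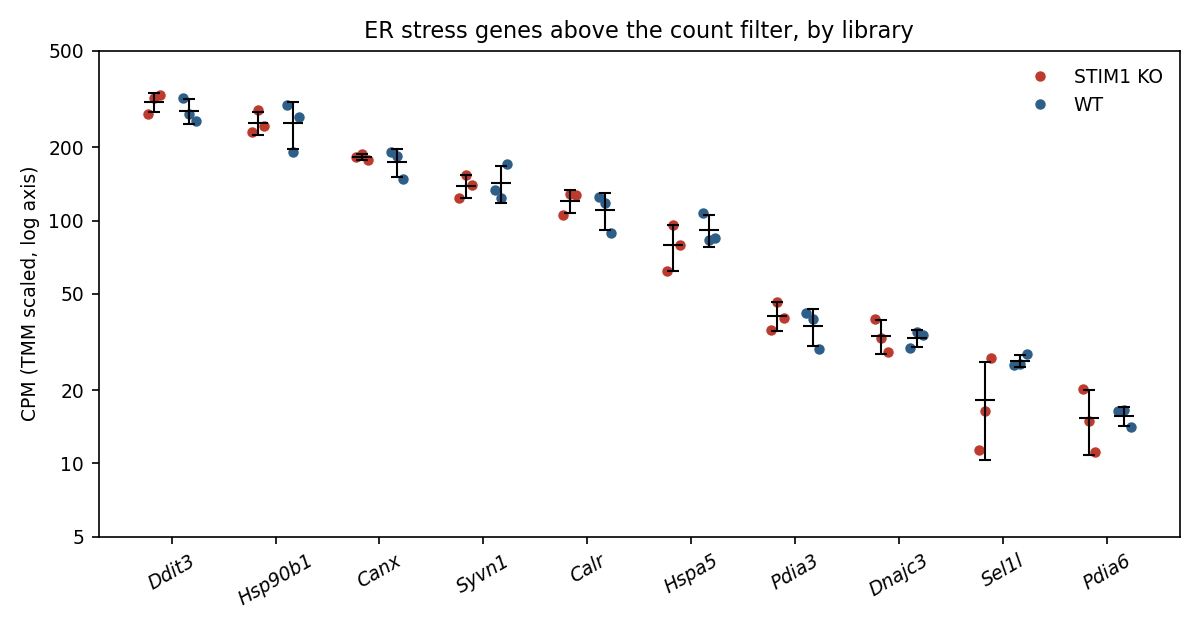
CPM of each library (points, log axis) for the 10 tested genes, with STIM1 KO left of WT, and the mean with its SD (bars, n = 3 each). The KO and WT points overlap for every gene, from Ddit3 at 307 CPM in KO and 283 CPM in WT down to Pdia6 at 15.5 CPM in KO and 15.7 CPM in WT.

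The sensors and most transcription factors were read at the edge of detection. Ern1 had 1, 0 and 0 counts in both genotypes, and Eif2ak3 0, 4 and 1 counts in KO and 2, 0 and 3 in WT. Atf6 had 6, 9 and 2 counts in KO and 6, 5 and 5 in WT. Xbp1 had 5, 7 and 11 counts in KO and 5, 9 and 4 in WT, and counts per gene do not separate the spliced from the unspliced form. Atf4 had 7, 3 and 0 counts in KO and 11, 7 and 4 in WT, with overlapping groups and an exact permutation p of 0.2. Atf3, a stress-inducible factor downstream of ATF4, had 0, 3 and 1 counts in KO and 0, 1 and 1 in WT. Where a library had no count, up to 3 counts remain possible from counting error alone, which is 3.80 to 4.77 CPM.

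Ddit3, which encodes the pro-apoptotic factor CHOP (chromosome 10, 127290774 to 127296288, plus strand), had the most counts of the 31 genes. It had 217, 214 and 206 counts in KO and 214, 181 and 182 in WT. The means were 307 ± 28.7 CPM in KO and 283 ± 32.3 CPM in WT (SD, n = 3 each), with WT replicate 1 inside the KO range and a log2 fold change of 0.11 (SE 0.15, edgeR adjusted p 0.997). Per length, Ddit3 stood at 179 ± 16.7 CPM per kilobase of exon in KO and 165 ± 18.8 in WT, ahead of Hsp90b1 at 62.8 ± 6.90 in KO and 62.5 ± 13.5 in WT. That level was above 99.0% of 19902 protein-coding genes. Ddit3 shares 68 bases of exon with Mars, a methionyl-tRNA synthetase gene on the other strand, which had 88, 101 and 68 counts in KO and 78, 74 and 86 in WT. How far transcripts of Mars enter the Ddit3 count was not tested.

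The PERK and ATF4 targets gave too few reads for a comparison. Trib3, a pseudokinase that restrains ATF4 and CHOP, was at 0 in all 6 libraries. Chac1, an enzyme that degrades glutathione, had 2, 1 and 0 counts in KO and 0 in each WT library, which is within the limit for a count of 0. Asns, asparagine synthetase, had 4, 4 and 1 counts in KO and 3, 3 and 1 in WT. Ppp1r15a, which encodes GADD34, the phosphatase subunit that reverses the PERK signal, had 0, 2 and 1 counts in KO and 1 in each WT library. The 4 genes together had 6, 7 and 2 counts in KO and 4, 4 and 2 in WT.

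Among the ER degradation genes, which return misfolded proteins to the cytosol for the proteasome, Sel1l lay farthest from no difference of all tested members. SEL1L is the adaptor of the ubiquitin ligase HRD1, and Sel1l (chromosome 12, 91806043 to 91849157) had 9, 11 and 17 counts in KO and 17, 17 and 20 in WT. Its means were 18.3 ± 7.99 CPM in KO and 26.4 ± 1.55 CPM in WT (SD, n = 3 each). KO replicates 1 and 2 lay below all WT libraries and KO replicate 3 among them. The log2 fold change was -0.56 (SE 0.35, edgeR unadjusted p 0.125, adjusted p 0.987), with a 95% interval of the fold from 0.406 to 1.13. Without KO replicate 3 it was -0.94 (unadjusted p 0.0265, edgeR adjusted p 0.968), and without KO replicate 1 it was -0.30 (unadjusted p 0.422). Syvn1, the ligase HRD1 itself, had 98, 103 and 88 counts in KO and 90, 82 and 121 in WT, a log2 fold change of -0.046 (SE 0.18). It shares 91 bases of exon with Mrpl49, a mitochondrial ribosomal protein gene on the other strand, which had 48, 50 and 46 counts in KO and 46, 35 and 53 in WT.

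The other degradation genes had at most 7 counts in any library. Herpud1, a stress-inducible membrane protein that gathers the HRD1 complex, had 7, 2 and 3 counts in KO and 1, 3 and 2 in WT, with an exact permutation p of 0.2. Derl1 and Derl3 encode rhomboid-like proteins of the exit channel. Derl1 had 7, 2 and 2 counts in KO and 3, 5 and 3 in WT, and Derl3 had 1, 6 and 2 counts in KO and 3, 5 and 4 in WT. Edem1, a lectin that hands glycoproteins to degradation, had 0, 2 and 0 counts in KO and 2, 1 and 1 in WT.

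**Figure D3:**
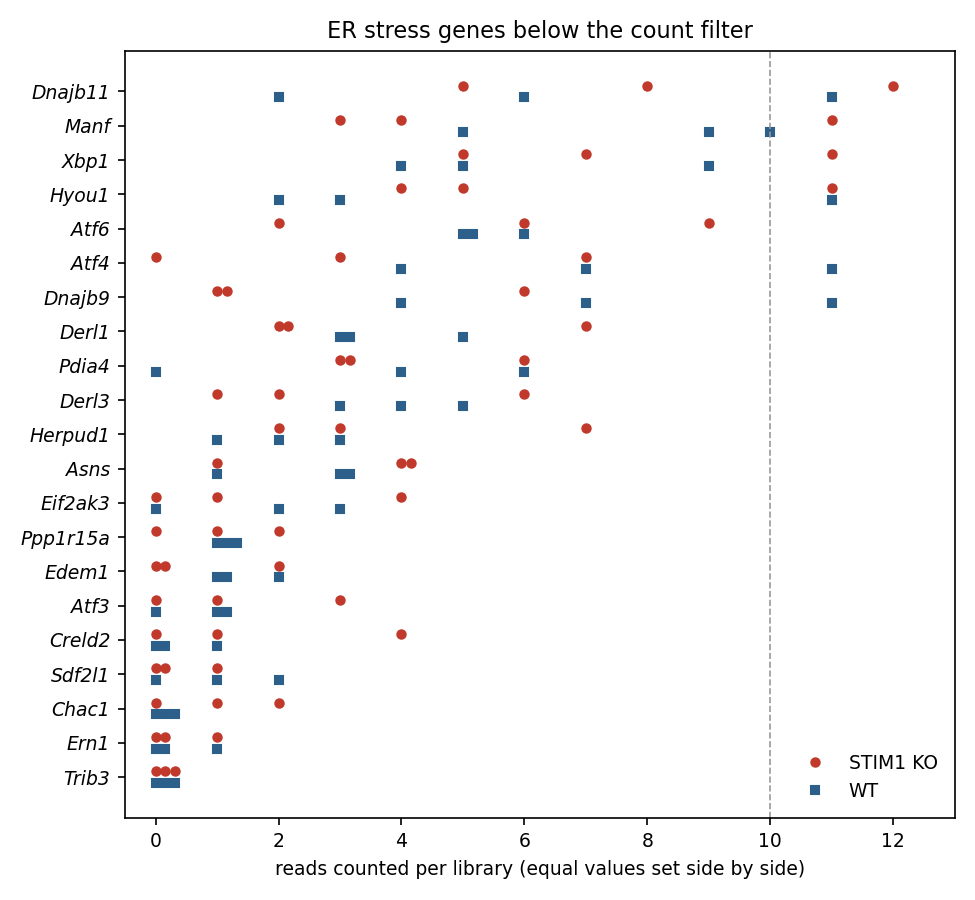
Reads counted in each library for the 21 genes below the filter (circles STIM1 KO, squares WT, equal values set side by side, dashed line at 10 counts). The KO and WT values overlap for every gene, and 15 of the genes had at most 10 counts in every library.

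Over the 21 genes below the filter the mean CPM was higher in KO for 12, lower for 8 and 0 in both genotypes for Trib3. These are directions of few reads, and the lowest exact two-sided permutation p among them was 0.2. When all genes with any count were tested by edgeR, Dnajb9 had the lowest unadjusted p of the 30 members that this admits, 0.0212 (log2 fold change -1.45, SE 0.63, adjusted p 0.904). In the authors' deposited edgeR table Dnajb9 stood at a log2 value for WT relative to KO of 1.46, p = 0.0263. It was the only member with p under 0.05 there, beside 1.90% of the 24420 genes with a p. In the authors' deposited DESeq table Dnajb9 had a fold of KO over WT of 0.335 with p = 0.0750. There 0 members had p under 0.05, against 1.86% of the 16540 genes with a p, which leave out genes with no count. The authors' deposited tables were made from the same libraries and are no independent evidence.

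For the tested genes the intervals set a limit to a change. The 95% interval of the fold stayed below a 2-fold rise in KO for all 10 and below a 1.5-fold rise for 7, which leaves out Pdia3, Pdia6 and Dnajc3. Over the 10 genes the intervals ran from 0.406 to 1.79. For the 7 tested holders of an ERSE listed above, log2 fold changes lay between -0.22 (Hspa5) and 0.11 (Calr). No holder of an ERSE-II or a C/EBP-ATF element was tested, and none of them had more than 12 counts in a library. These limits hold for the counts as deposited.

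**Figure D4:**
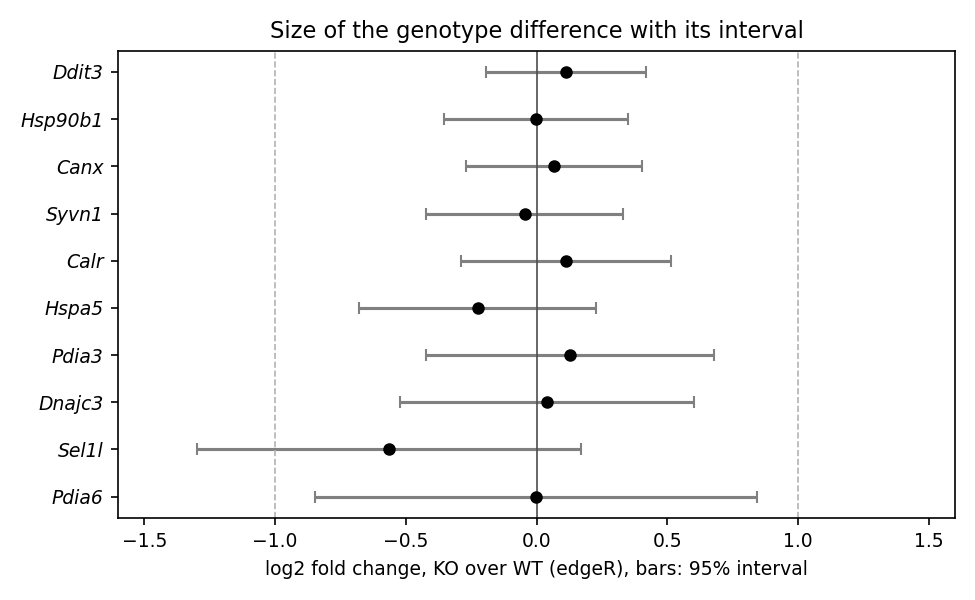
Log2 fold change of KO over WT from edgeR (points) with its 95% interval (bars) for the 10 tested genes. Dashed lines mark -1 and 1, and every interval holds 0, with Sel1l at -0.56 the farthest from it.

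Levels differed widely within the set. Per length, after Ddit3 and Hsp90b1 came Calr at 41.8 ± 4.59 CPM per kilobase of exon in KO and 38.4 ± 6.69 in WT, and Canx at 39.0 ± 1.10 in KO and 37.2 ± 4.92 in WT, which did not differ from each other beyond their spread. Syvn1 followed at 28.7 ± 3.09 in KO and 29.4 ± 5.04 in WT and Hspa5 at 18.7 ± 3.99 in KO and 21.7 ± 3.21 in WT (SD, n = 3 each). The 6 genes with the most counts held 83.8% of all counts of the 31. Genes of the set with exon shared on the other strand were 6 (Ddit3, Syvn1, Hsp90b1, Pdia6, Manf and Eif2ak3), and they held 56.3% of its counts, beside 74.4% over all annotated genes. Over all annotated genes 5187 shared such exon and 18189 did not, with median mean counts of 7.17 and 0.5. In the set these medians were 53.9 and 3.67. Hsp90b1 shares 415 bases with the pseudogene 1810014B01Rik, which had at most 2 counts in any library. Hspa5, Calr, Canx, Pdia3, Dnajc3 and Sel1l, the 6 tested genes with no such overlap, had a median log2 fold change of 0.053.

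The wider pathway was read from 91 further genes. Of these 37 were tested by edgeR, and 0 were called higher and 0 lower. Of the 37, 1 had an unadjusted p under 0.05, beside 4.62% of all tested genes. KO and WT values did not overlap for 3 of the 37, beside 10.7% of all tested genes. Log2 fold changes of the 37 were above 0 for 11 and below 0 for 26, with a median of -0.094, and 50.3% of all tested genes lay above 0. The median of the 37 was -0.084 with RLE factors and -0.14 with the library size of all uniquely aligned reads, and leaving out each library it ran from -0.19 without WT replicate 3 and -0.17 without KO replicate 2 (36 genes) to -0.015 without WT replicate 1, where 16 lay above 0 and 21 below. The gene with the unadjusted p under 0.05 was Tmbim6, which encodes the ER membrane protein Bax inhibitor 1, a restraint on IRE1. It averaged 165 ± 40.6 CPM in KO and 234 ± 20.97 CPM in WT (SD, n = 3 each), and its log2 fold change was -0.51 (SE 0.18, edgeR adjusted p 0.917). In the same group Eif2ak1, the heme-regulated relative of PERK, lay at 0.60 (SE 0.37). Among 9 tested ATF4 and CHOP targets, 2 above 0 and 7 below, the lowest p belonged to Nars, asparaginyl-tRNA synthetase, at -0.51 (SE 0.25), and Gadd45a, a DNA damage-inducible growth arrest gene, at -0.56 (SE 0.38). Among 16 tested genes of ER degradation and translocation, 5 above 0 and 11 below, they were Vcp, the ATPase that pulls proteins out of the ER, at -0.59 (SE 0.29), and Ube2j1, a ubiquitin-conjugating enzyme of the ER membrane, at -0.64 (SE 0.34). Among 7 tested folding enzymes they were Uggt2, a relative of the glycoprotein folding sensor UGGT1, at -0.65 (SE 0.32), and Txndc5, a disulfide isomerase, at 0.43 (SE 0.39). Exon of 15 of the 37 genes is also exon of the opposite strand, as for Eif2ak1, Gadd45a, Vcp, Uggt2 and Txndc5. Of all annotated genes that were tested, 2356 shared such exon and 2774 did not. With the strand setting not given, the gene read is uncertain for these 15 and for the others.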

How the data were processed

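Each library has a deposited file of raw counts by gene symbol, made by the authors with TopHat and HTSeq 0.9.1 on GRCm38 (mm10), per the submitters' processing notes. The annotation and the strand setting are not stated. The 5 rows that name no gene were left out. Among them, the row for reads that fell in no gene held 98.8% of the uniquely aligned reads. Also deposited were the results of the authors' DESeq run, which give mean normalised signal per genotype, the fold of KO relative to WT as a ratio and an unadjusted p-value, and of the authors' edgeR run, which give log2 values of WT relative to KO and an unadjusted p-value. Both serve for description alone.

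KO was compared with WT with edgeR 4.0.16 in R 4.3.3 (glmQLFit, TMM factors of 0.954 to 1.04, filterByExpr with a minimum count of 10, no covariate), with Benjamini-Hochberg adjustment over all 5320 tested genes and a threshold of 0.05. Standard errors and 95% intervals follow from the F statistic. Members below the filter were compared by exact permutation of CPM. The test was checked on simulated counts. Alternatives were DESeq2 1.42.0, limma-voom (limma 3.58.1), other normalisations, library sizes and filters, a replicate block and leaving out libraries. Positions and exon overlaps come from GENCODE M21 (GRCm38), which matched 95.7% of symbols, and promoters from RefSeq. Named beyond the 31 genes are Stim1, the 2 pathway genes of lowest p per group, and Mars, Mrpl49 and 1810014B01Rik as partners. The members and lists were chosen with earlier results of these data known.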

Additional observations from a re-analysis of the deposited data

How the results depend on the processing

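No alternative called any of the members that it tested. These were 10 to 13 of the 31 genes, and 30 with no filter on low counts. Trib3, at 0 in all libraries, was never tested. The lowest adjusted p of a tested member over 15 alternatives was 0.904, with no filter on low counts. The count of called genes over the whole table was 6 with no filter on low counts, 1 (Erdr1) without both libraries with Y-linked counts. Leaving out each library it was 0 to 1, with 1 (Erdr1) without WT replicate 3. With DESeq2 the genes at an unadjusted p under 0.05 were 96, with no filter 638. The median of the members ran from -0.029 (library size of all uniquely aligned reads) to 0.042 (no filter), and from -0.018 to 0.080 leaving out each library. It was 0.053 among members with no exon shared with the other strand.

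Signs turned in at least 1 alternative for 8 of the 10 tested members, whose log2 fold changes lay between -0.046 and 0.13. Hspa5 and Sel1l stayed below 0 in all 15, at -0.39 to -0.074 and -0.94 to -0.30 leaving out each library. Hsp90b1 lay at 0.0093 with RLE, 0.025 with no filter, 5.6e-05 with the CPM filter of 10, 0.0097 with DESeq2, 0.015 with limma-voom and 0.056 without both libraries with Y-linked counts. Pdia6 lay at 0.0080 with RLE, 0.017 with no filter and 0.094 without those libraries, and Dnajc3 at -0.0080 with the library size of all uniquely aligned reads. Without those libraries Calr lay at -0.072, Canx at -0.029, Pdia3 at -0.0063, Ddit3 at -0.0076 and Syvn1 at 0.093. Leaving out each library, the ranges were -0.16 to 0.13 (Hsp90b1), -0.10 to 0.13 (Dnajc3), -0.031 to 0.21 (Calr), -0.048 to 0.13 (Canx), -0.018 to 0.22 (Pdia3), -0.27 to 0.17 (Pdia6) and -0.14 to 0.096 (Syvn1). The cause was not tested. The Stim1 log2 ratio of -1.87 ran from -2.31 to -0.79 leaving out each library, with -0.79 without WT replicate 2. It was -1.77 with no filter, and Stim1 was not among the filtered genes on which DESeq2, limma-voom, the CPM filter and the block were run.

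With the replicate block 0 genes and 0 members were called, 287 genes had an unadjusted p under 0.05 and Hsp90b1 lay at 0.0090. Deviations of libraries with equal numbers correlated at 0.143, 0.0795 and 0.122, each above those with other numbers. As deviations were taken from each genotype's mean, a positive value at equal numbers pulls the others down. Part of this contrast is therefore built in, and it was not tested. The labels name no pairing. Few reads per gene limit the 21 members below the filter.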
